A study of Homo sapiens with 20 samples.

Results

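The genes described here are 10 amino acid transporters that are commonly induced in the amino acid and endoplasmic reticulum stress response: SLC7A11, SLC3A2, SLC7A5, SLC38A2, SLC38A1, SLC1A4, SLC1A5, SLC7A1, SLC6A9 and SLC43A1. They were taken by name from a table of 36346 gene names, and each of the 10 names had exactly 1 row in all 20 libraries, so none was lost and all 10 passed the filter on low values in both cell lines. RNA-seq of captured coding transcripts was performed 72 h after transient reverse transfection of HT29 and SW480, a pair of human colorectal cancer cell lines, with a negative control siRNA (SCR) or with siPOLR1D-2 or siPOLR1D-3, which target POLR1D, a subunit shared by RNA polymerases I and III. HT29 had 4 SCR libraries and 2 libraries of each POLR1D siRNA, whereas SW480 had 6 SCR libraries and 3 of each siRNA. POLR1D lies in a focal amplification in HT29 and on a gained chromosome in SW480, and the lines were kept in different media (DMEM and RPMI), so that cell line, medium and copy number cannot be told apart. The labels do not say that replicates came from separate cultures, and p-values therefore measure only the spread between these libraries, which may be technical.

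When amino acids run short or proteins misfold, cells slow general translation while translating the transcription factor ATF4, which binds C/EBP-ATF response elements and induces transporters and enzymes that restore the amino acid pool. Several of these transporters are central to tumor metabolism: glutamine enters through SLC1A5 and SLC38A2, leucine through SLC7A5, and cystine, the precursor of glutathione, through SLC7A11, which is also induced by the antioxidant factor NRF2. SLC3A2 encodes the heavy chain (CD98) that both SLC7A5 and SLC7A11 need to reach the cell surface. SLC7A11, SLC38A2 and SLC1A4 are among the genes the study itself picked from these same libraries, so their direction is not independent evidence.

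The siRNA target was lower in every silenced library. In HT29 the normalized read count of POLR1D was 5048 ± 700 (SD, n = 4) with SCR and 3078 ± 452 (SD, n = 4) after silencing, and in SW480 it was 2116 ± 281 (SD, n = 6) and 1036 ± 183 (SD, n = 6), without overlap of the groups in either line (log2 fold change -0.72, SE 0.14, limma adjusted p = 0.355 and exact permutation p = 0.0286 in HT29, and -1.04, SE 0.13, limma adjusted p = 0.000991 in SW480). The estimated depth was 13500000 to 27600000 reads per library. Along the first principal component (43.3% of the variance in HT29 and 42.0% in SW480), HT29 SCR replicate 1 stood apart from the other libraries of its line. SW480 split by sign into SCR replicates 1 to 3 with siPOLR1D-2 replicates 1 and 2 on one side and the other 7 libraries, including all of siPOLR1D-3, on the other. SW480 SCR replicate 1, at -14.1, lay between the rest of its side (-71.5 to -52.7) and the other side (21.8 to 53.7). Of 8 colorectal epithelial markers, 7 reached a normalized read count of 10 in HT29, where CDX2 did not, and LGALS4 did not in SW480 SCR libraries; of 9 markers of immune, endothelial and stromal cells, CD3E and DCN stayed under 10 everywhere, and the summed level of the 9 was 22.5 to 97.1 in HT29 and 133 to 813 in SW480, against 131806 to 259882 for the epithelial markers.

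The letters of the C/EBP-ATF response element (TGATGNAA, or TTNCATCA on the other strand) were searched in RefSeq promoter windows (GRCh38.p14, 250 bases before to 50 after an annotated start), because ATF4 acts on several of these genes through such elements. Windows were found for 9 of the 10 genes, 16 in all, and for SLC7A11 none was listed. The letters were present in 5 of the 16 windows, 1 each for SLC38A1, SLC1A4, SLC1A5, SLC3A2 and SLC7A1, whereas 3.62% of all 35116 windows of 300 bases held them. A match describes the letters only and is not evidence of binding. The following 4 windows, each 5′ to 3′ on the strand of its gene with the matched letters in capitals, are shown because they set the 3 genes with a window that passed the test in SW480 beside SLC1A5, the paralog of SLC1A4, which did not pass. SLC38A2 (chr12:46372724-46373023, minus strand) held no match in its window. The matches of SLC1A4 (chr2:64989149-64989448, plus strand) and SLC7A1 (chr13:29595639-29595938, minus strand) lay 7 bases before and 7 bases after the start. That of SLC1A5 (chr19:46784765-46785064, minus strand) lay 97 bases before the start. For both SLC1A4 and SLC1A5, this start is inside the annotated gene. The windows nearest their annotated gene starts (chr2:64988229-64988528 and chr19:46788545-46788844) held no match. The starts of the matching SLC38A1 and SLC3A2 windows are also inside the annotated gene, and only that of SLC7A1 is at the annotated gene start.
SLC38A2: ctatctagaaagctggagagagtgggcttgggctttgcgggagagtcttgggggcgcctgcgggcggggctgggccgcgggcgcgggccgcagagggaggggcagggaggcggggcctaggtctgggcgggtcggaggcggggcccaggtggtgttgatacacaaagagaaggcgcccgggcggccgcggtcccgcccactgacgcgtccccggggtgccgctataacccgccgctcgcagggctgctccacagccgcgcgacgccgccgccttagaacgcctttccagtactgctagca
SLC1A4: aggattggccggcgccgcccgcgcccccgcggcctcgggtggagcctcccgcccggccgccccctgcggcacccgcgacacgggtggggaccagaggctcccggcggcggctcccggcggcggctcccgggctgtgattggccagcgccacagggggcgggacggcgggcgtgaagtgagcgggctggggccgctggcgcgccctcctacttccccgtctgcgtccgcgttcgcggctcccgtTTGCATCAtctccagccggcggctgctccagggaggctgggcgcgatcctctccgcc
SLC1A5: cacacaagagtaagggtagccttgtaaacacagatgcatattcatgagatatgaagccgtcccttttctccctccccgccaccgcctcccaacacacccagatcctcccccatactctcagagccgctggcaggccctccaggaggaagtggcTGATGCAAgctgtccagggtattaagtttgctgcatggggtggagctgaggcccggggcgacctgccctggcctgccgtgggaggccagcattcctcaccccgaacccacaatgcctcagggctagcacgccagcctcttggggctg
SLC7A1: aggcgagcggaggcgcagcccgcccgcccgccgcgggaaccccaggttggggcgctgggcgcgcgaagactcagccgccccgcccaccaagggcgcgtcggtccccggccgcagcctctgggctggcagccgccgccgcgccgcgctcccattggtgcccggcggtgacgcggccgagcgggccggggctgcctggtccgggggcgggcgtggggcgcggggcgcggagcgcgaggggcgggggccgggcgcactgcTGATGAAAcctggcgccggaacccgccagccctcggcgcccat

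All 10 transporters had a lower mean after POLR1D silencing in both cell lines. In such bulk libraries, fewer cells of a kind and less RNA per cell cannot be told apart. In SW480, SLC7A11, SLC38A2, SLC1A4 and SLC7A1 passed the test for lower expression (limma, Benjamini-Hochberg adjusted p under 0.05 over 15019 genes), and no transporter passed for higher expression. These were 4 of 10, where 4.29% of all tested genes passed as lower. The median log2 fold change of the 10 was -0.47 in SW480, against 0.013 for all tested genes, and 48.5% of all genes had a negative value. In HT29, limma called 0 of the 10 and 0 of 13274 genes (0%) at an adjusted p under 0.05. At an unadjusted p under 0.05, 5 of the 10 were lower in HT29 (SLC7A11, SLC38A2, SLC1A4, SLC7A1 and SLC6A9), where 6.05% of all genes were. The median log2 fold change of the 10 in HT29 was -0.91, against 2e-04 for all genes, of which 50% were negative. The study tested these HT29 libraries with DESeq2, a different test. It listed SLC7A11, SLC38A2, SLC1A4 and POLR1D as lower there with a DESeq2 adjusted p under 0.05. The absence of limma calls in HT29 therefore holds for limma on the normalized values.

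The SW480 calls other than that of SLC1A4 depended on single libraries. SLC1A4 passed after leaving out any 1 of the 12 SW480 libraries, whereas the number of transporters called was 1 without SCR replicate 2, 3 or 6, without siPOLR1D-2 replicate 3 or without any siPOLR1D-3 library, and 2 without SCR replicate 4 or 5. The log2 fold changes of SLC7A11, SLC38A2 and SLC7A1 stayed between -2.03 and -0.55 in these fits, with adjusted p up to 0.0871. Where only 1 or 2 transporters were called, 534 to 855 of all genes were called, against 1011 with all 12 libraries. The loss of calls was thus not particular to the transporters. Within SCR replicates 1 to 3 and siPOLR1D-2 replicates 1 and 2 limma called 0 of the 10 and 0 of 15110 genes (1520 of these had an unadjusted p under 0.05), and the log2 fold changes were closer to 0 there, at -0.39 for SLC7A11, -0.64 for SLC38A2 and -0.36 for SLC7A1, with -0.88 for SLC1A4. The other 7 libraries alone gave 6 calls, namely SLC7A11, SLC38A2, SLC38A1, SLC1A4, SLC7A1 and SLC6A9, where 1939 of 15553 genes were called. The log2 fold changes there were -2.54 for SLC7A11, -1.47 for SLC38A2, -0.70 for SLC7A1 and -1.08 for SLC1A4. The silenced libraries of that fit were all those of siPOLR1D-3 but only replicate 3 of siPOLR1D-2.

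**Figure D1:**
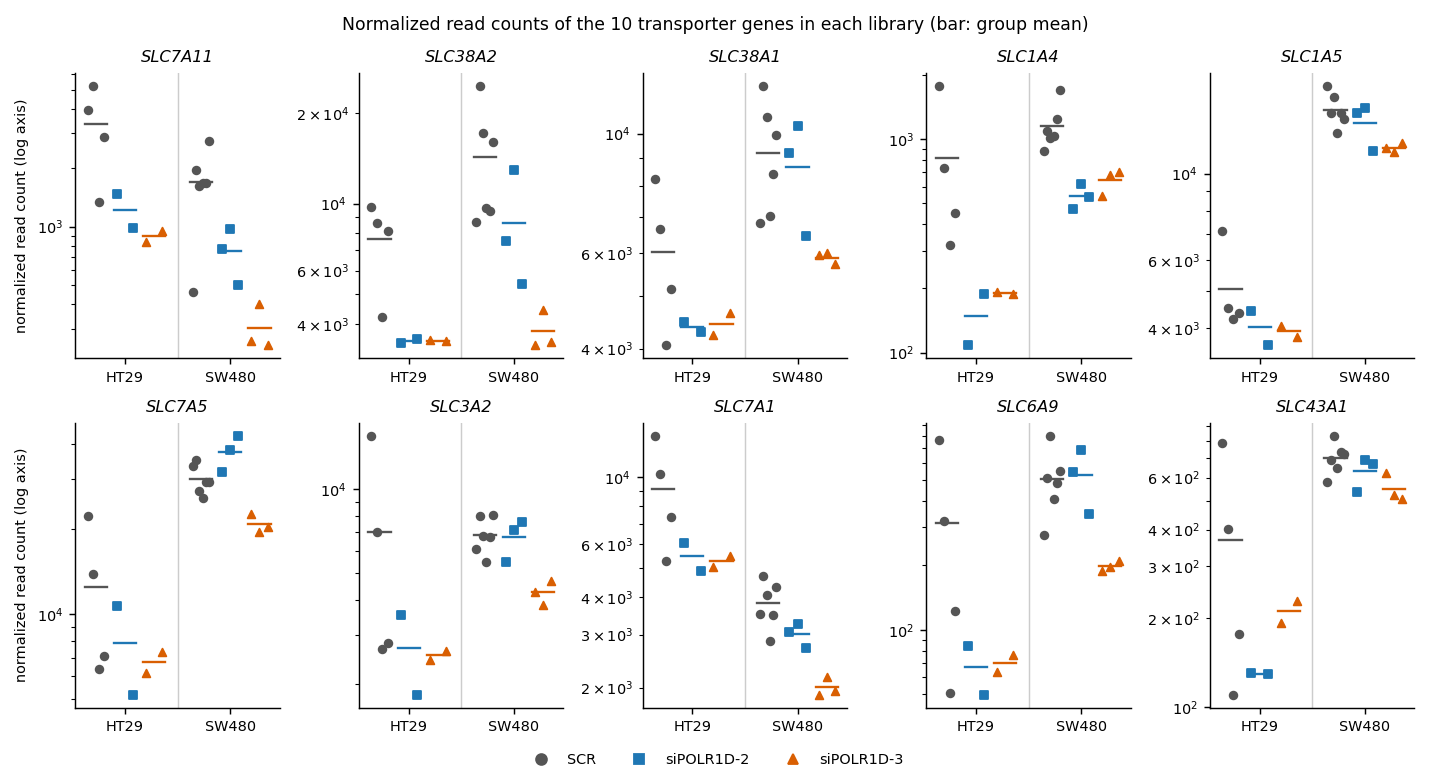
Normalized read counts (log axis) of the 10 transporter genes, with 1 panel per gene, HT29 on the left and SW480 on the right of each panel; points are libraries and bars are group means. SLC1A4 is the only one of the 10 whose silenced libraries lie below every SCR library in both lines.

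SLC7A11, the cystine/glutamate exchanger (chromosome 4, 138164097 to 138242349 in GRCh38, GENCODE 29, minus strand), had the largest decrease of the 10 in SW480. In HT29 its normalized read count was 3946, 5223, 1338 and 2869 in SCR replicates 1 to 4, 1463 and 979.8 with siPOLR1D-2, and 836 and 947 with siPOLR1D-3. Only the siPOLR1D-2 library at 1463 overlapped the SCR range, at the low value of SCR replicate 3, and the log2 fold change was -1.53 (SE 0.37, limma adjusted p = 0.355, exact permutation p = 0.0571, 2-sided). In SW480 the 6 SCR libraries ranged from 461 over a median of 1666 to 2743, with 764, 978 and 501 for siPOLR1D-2 and 261, 404 and 248 for siPOLR1D-3. All siPOLR1D-3 libraries lay below all SCR libraries, while those of siPOLR1D-2 overlapped them only through SCR replicate 1 at 461, the sole SCR library under 1621. SLC7A11 fell 3.22-fold in SW480 with both siRNAs pooled (log2 fold change -1.69, SE 0.42, limma adjusted p = 0.0306, exact permutation p = 0.00866, 2-sided). An antisense gene, SLC7A11-AS1, overlaps its position on the other strand.

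SLC3A2, the heavy chain that carries SLC7A11 and SLC7A5 to the membrane (chromosome 11, 62856102 to 62888875, plus strand), showed no call with both siRNAs together. Its HT29 values were 15548, 7034, 2673 and 2811 in SCR replicates 1 to 4, 3543 and 1828 (siPOLR1D-2), and 2435 and 2625 (siPOLR1D-3). SCR replicates 3 and 4 lay within the range of the silenced libraries, and the log2 fold change of -1.08 (SE 0.51, limma adjusted p = 0.487) became -0.56 without SCR replicate 1. In SW480 its SCR libraries ranged from 5491 (median 6772) to 8059.5, the siPOLR1D-2 libraries were at 5473, 7166 and 7631, and the siPOLR1D-3 libraries at 4271, 3844 and 4692. The siPOLR1D-3 libraries lay below every SCR library (log2 fold change -0.68, SE 0.14, limma adjusted p = 0.0186) and those of siPOLR1D-2 within the SCR range apart from 1 library just under it (-0.02, SE 0.14, limma adjusted p = 0.942).

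SLC7A5, the leucine and large neutral amino acid transporter LAT1 (chromosome 16, 87830023 to 87869488, minus strand), had the smallest p of the 10 for the difference between the siRNAs in SW480. The SW480 libraries were at 31775, 38017 and 42619.7 with siPOLR1D-2 and at 22519.6, 19409 and 20347 with siPOLR1D-3, around an SCR range of 25604 (median 29289) to 35097. With siPOLR1D-3 SLC7A5 fell below all SCR libraries (log2 fold change -0.53, SE 0.13, limma adjusted p = 0.0317), and with siPOLR1D-2 2 of the 3 libraries lay above all of them, a difference that did not pass the test (0.32, SE 0.13, limma adjusted p = 0.143). Both siRNAs together gave -0.10 (SE 0.19, limma adjusted p = 0.791). In HT29 SLC7A5 stood at 22205, 13852, 6399 and 7109.6 with SCR, at 10619 and 5174 with siPOLR1D-2, and at 6178 and 7348 with siPOLR1D-3. The HT29 groups overlapped (log2 fold change -0.62, SE 0.38, limma adjusted p = 0.554), and the value was -0.28 without SCR replicate 1. The pseudogene SLC7A5P1, which could share reads with SLC7A5, had 0.182% to 1.09% of its normalized read count, and SLC7A5P2 was listed at 0.

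SLC38A2, the stress-inducible system A carrier of glutamine and other small neutral amino acids (chromosome 12, 46358189 to 46372867, minus strand), was lower in every silenced HT29 library than in any SCR library. The SCR libraries of HT29 were at 9725, 8608, 4200.3 and 8102, and the silenced libraries at 3453 and 3557 with siPOLR1D-2 and 3529.8 and 3504 with siPOLR1D-3. The 4 silenced libraries lay close to each other and under every SCR library, and the log2 fold change was -1.06 (SE 0.23, limma adjusted p = 0.355, exact permutation p = 0.0286, 2-sided, the smallest that 4 against 4 libraries allow). The adjusted p was 0.0081 without SCR replicate 3, the lowest SCR library. In SW480 the SCR libraries ranged from 8717 (median 12855) to 24526, the siPOLR1D-2 libraries were at 7524, 12975 and 5413, and the siPOLR1D-3 libraries at 3403, 4429 and 3481. Of the 6 silenced libraries, 5 lay below all SCR libraries and siPOLR1D-2 replicate 2 near their median. SLC38A2 fell 2.40-fold (log2 fold change -1.27, SE 0.34, limma adjusted p = 0.0399, exact permutation p = 0.0152, 2-sided).

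SLC38A1, the paralog that carries glutamine in proliferating cells, lies 88.2 kb from SLC38A2 on chromosome 12 (46183063 to 46270017, minus strand) and had no limma call in either line over all libraries. In HT29 it ranged from 4064 to 8238 in SCR libraries and from 4231 to 4655 in silenced libraries (log2 fold change -0.40, SE 0.19, limma adjusted p = 0.491). All silenced libraries lay above SCR replicate 3 and below SCR replicate 4. In SW480 the SCR libraries ranged from 6833 to 12240.4, the siPOLR1D-2 libraries from 6471 to 10350.1 and the siPOLR1D-3 libraries from 5736 to 6003. The siPOLR1D-3 libraries lay below all SCR libraries, but the difference missed the threshold (log2 fold change -0.61, SE 0.19, limma adjusted p = 0.0776), and the siPOLR1D-2 difference was -0.08 (SE 0.19, limma adjusted p = 0.837).

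SLC1A4, the alanine, serine, cysteine and threonine transporter ASCT1 (chromosome 2, 64988477 to 65023865, plus strand), was the only 1 of the 10 whose silenced and SCR libraries did not overlap in both lines; 4.17% of all genes in HT29 and 2.88% in SW480 had all silenced libraries below all SCR libraries. In HT29 it stood at 1774, 729.5, 319 and 449 with SCR, at 109 and 188 with siPOLR1D-2, and at 193 and 187 with siPOLR1D-3. Even the lowest SCR library lay above the highest silenced library, while the SCR libraries themselves spanned 5.56-fold, and the log2 fold change was -1.99 (SE 0.46, limma adjusted p = 0.355, exact permutation p = 0.0286, 2-sided). In SW480 the SCR libraries ranged from 884 (median 1061) to 1694, the siPOLR1D-2 libraries were at 470.4, 616 and 538, and the siPOLR1D-3 libraries at 542, 681 and 704. SLC1A4 fell 1.93-fold in SW480 (log2 fold change -0.95, SE 0.16, limma adjusted p = 0.00496, exact permutation p = 0.00216, 2-sided, the smallest that 6 against 6 allow), and it was the only transporter to pass with each siRNA taken alone.

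SLC1A5, the glutamine transporter ASCT2 of the same family (chromosome 19, 46774883 to 46788594, minus strand), showed small differences. In HT29 it was 7118 in SCR replicate 1, between 4226 and 4522 in the other SCR libraries, and between 3627 and 4422 after silencing (log2 fold change -0.32, SE 0.17, limma adjusted p = 0.516). In SW480 it ranged from 12679.8 to 16778 with SCR, from 11456 to 14729 with siPOLR1D-2, and from 11369.7 to 12003 with siPOLR1D-3. The siPOLR1D-3 libraries lay below every SCR library, and both siRNAs together gave a log2 fold change of -0.22 (SE 0.10, limma adjusted p = 0.209, exact permutation p = 0.0411, 2-sided, unadjusted).

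SLC7A1, the arginine and lysine carrier CAT-1 (chromosome 13, 29509410 to 29595688, minus strand, 1.77 Mb from POLR1D), fell in SW480. Its SW480 libraries ranged from 2858 (median 3790.5) to 4685 with SCR, and were at 3057, 3259.7 and 2716 with siPOLR1D-2 and at 1896, 2174 and 1946 with siPOLR1D-3. All siPOLR1D-3 libraries and 1 siPOLR1D-2 library lay below all SCR libraries, and the decrease was 1.54-fold (log2 fold change -0.62, SE 0.16, limma adjusted p = 0.0354, exact permutation p = 0.00649, 2-sided). In HT29 it stood at 13716, 10244, 5282 and 7378 with SCR, 6023 and 4897 with siPOLR1D-2, and 5048 and 5459.5 with siPOLR1D-3. SCR replicate 3 lay among the silenced libraries, and the log2 fold change was -0.69 (SE 0.25, limma adjusted p = 0.430).

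SLC6A9, the glycine transporter GlyT1 (chromosome 1, 43991500 to 44031467, minus strand), had the lowest level per kb of the 10 in SCR libraries of both lines and the widest SCR range in HT29. There it was 765, 323, 50.9 and 122 in SCR replicates 1 to 4, 84.1 and 49.9 with siPOLR1D-2, and 63.9 and 76.3 with siPOLR1D-3 (log2 fold change -1.55, SE 0.69, limma adjusted p = 0.466). Its SCR libraries spanned 15.0-fold, and SCR replicate 3 lay near the bottom of the silenced range. In SW480 the SCR libraries ranged from 276 (median 496) to 801, and the siPOLR1D-2 libraries at 544, 685 and 346 fell inside that range, whereas the siPOLR1D-3 libraries at 188, 197 and 208 lay below it. SLC6A9 fell with siPOLR1D-3 (log2 fold change -1.27, SE 0.28, limma adjusted p = 0.0218) and gave 0.08 with siPOLR1D-2 (SE 0.28, limma adjusted p = 0.900).

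SLC43A1, the branched-chain amino acid transporter LAT3 (chromosome 11, 57484534 to 57515786, minus strand), had no limma call in either line with both siRNAs together. In HT29 it ranged from 110.4 to 784 with SCR and from 129 to 229.9 after silencing, so that every silenced library lay inside the SCR range (log2 fold change -0.76, SE 0.53, limma adjusted p = 0.594). The value was -0.26 without SCR replicate 1. In SW480 it ranged from 578 to 831 with SCR and from 506 to 691 after silencing (log2 fold change -0.25, SE 0.12, limma adjusted p = 0.230, exact permutation p = 0.0455, 2-sided, unadjusted).

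**Figure D2:**
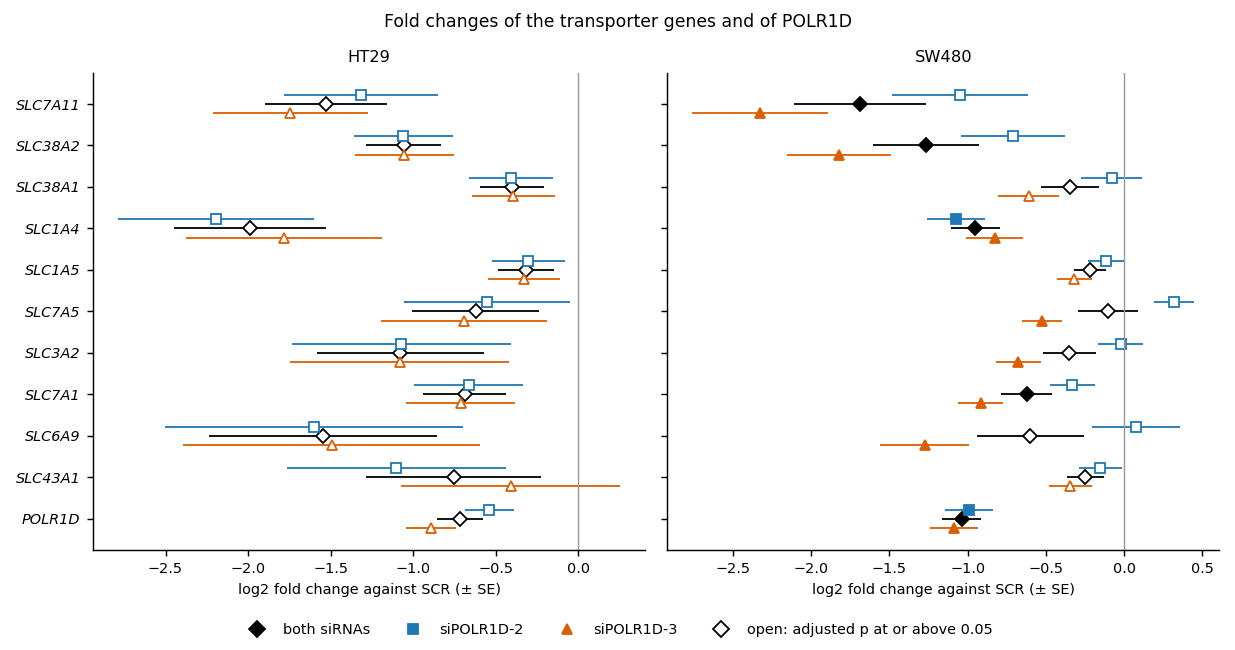
Log2 fold changes against SCR (horizontal bars: SE) of the 10 transporter genes and POLR1D, with both siRNAs together and with each siRNA alone; filled symbols have a limma adjusted p under 0.05. In SW480 the siPOLR1D-3 values reach from -2.32 to -0.32 while those of siPOLR1D-2 reach from -1.07 to 0.32, and no HT29 symbol is filled.

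The siRNAs were compared with each other within each line. Both comparisons with SCR share the same SCR libraries, so the siRNA difference itself was tested. In SW480, siPOLR1D-3 called 7 of the 10 lower (SLC7A11, SLC3A2, SLC7A5, SLC38A2, SLC1A4, SLC7A1 and SLC6A9), where 4.45% of all genes passed as lower, and siPOLR1D-2 called SLC1A4 alone, where 5% passed as lower. Between the siRNAs, SLC7A5 (log2 difference 0.84, SE 0.15, limma adjusted p = 0.0138) and SLC6A9 (1.35, SE 0.33, limma adjusted p = 0.0441) were higher with siPOLR1D-2 than with siPOLR1D-3, 2 of 10 where 1.69% of all genes passed as higher. SLC3A2 (0.65, limma adjusted p = 0.0523), SLC7A1 (0.58, limma adjusted p = 0.0711), SLC38A2 (1.11, limma adjusted p = 0.121) and SLC7A11 (1.28, limma adjusted p = 0.163) missed the threshold, and SLC1A4 was the sole gene of the 10 with a lower mean for siPOLR1D-2 (-0.25, limma adjusted p = 0.523). POLR1D itself differed by 0.10 between them (SE 0.18, limma adjusted p = 0.784). All 3 siPOLR1D-3 libraries, but only 1 of the 3 siPOLR1D-2 libraries, lay on the side of the first principal component that held SCR replicates 4 to 6, and siRNA and that side cannot be fully told apart. With SCR replicates 4 to 6 as the only controls, SLC7A11 (-2.72), SLC38A2 (-1.60), SLC3A2 (-0.65), SLC1A4 (-1.02), SLC7A1 (-0.81) and SLC6A9 (-1.27) still passed for siPOLR1D-3, whereas SLC7A5 did not (-0.43, limma adjusted p = 0.0586). The siPOLR1D-3 count rested on its 3 libraries: without replicate 1, 2 or 3 of siPOLR1D-3 it was 1, 3 or 1, and SLC7A1 passed in each of these fits. Leaving out 1 library moved the count of siRNA differences between 0 and 4. It was 0 without siPOLR1D-2 replicate 2 or any siPOLR1D-3 library. It was 1 without SCR replicate 5 or 6 or siPOLR1D-2 replicate 1, and 4 without SCR replicate 1 or 2. For these refits, including that with SCR replicates 4 to 6 alone, the numbers of all genes called are not reported here. The changes in count are therefore not read as particular to the transporters.

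In HT29 no difference between the siRNAs was detected. The median log2 fold change of the 10 was -1.07 with siPOLR1D-2 and -0.88 with siPOLR1D-3, and limma called 0 of the 10 with either siRNA (0% of 13274 genes). At an unadjusted p under 0.05, SLC7A11, SLC38A2 and SLC1A4 were lower with each siRNA, 3 of 10 where 2.7% (siPOLR1D-2) and 4.02% (siPOLR1D-3) of all genes were lower. Between the siRNAs limma called 0 of the 10 (0% of all genes), and 0 of the 10 had an unadjusted p under 0.05 (1.56% of all genes). The log2 differences between the siRNAs ran from -0.69 (SLC43A1, SE 0.77) to 0.43 (SLC7A11, SE 0.54). With SEs of 0.58 for SLC7A5 and 1.04 for SLC6A9, differences as large as those of the same genes in SW480 were not detectable with 2 libraries per siRNA.

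The SCR libraries of HT29 varied more in these genes than the silenced libraries did. SCR replicate 1 was the highest SCR library for 9 of the 10 and SCR replicate 3 the lowest for 10 of 10, with a median deviation from the SCR mean of 0.85 and -0.90 on the log2 scale. The silenced HT29 libraries had median deviations of -1.09 to -0.81, a range that SCR replicate 3 fell into. The SD of the log2 values was larger among SCR than among silenced libraries for 10 of 10 transporters (median 0.85 against 0.34), whereas this held for 71.5% of all tested genes (median 0.32 against 0.20). In SW480 it held for 2 of 10 (median 0.29 against 0.38), against 55.3% of all genes. The silenced SD pools both siRNAs and so includes the difference between them. Taken alone in SW480, siPOLR1D-3 had a smaller SD than SCR for every transporter, and siPOLR1D-2 a larger or a smaller one depending on the gene. For SLC7A5 it was 0.17 with SCR, 0.21 with siPOLR1D-2, 0.11 with siPOLR1D-3 and 0.49 with both siRNAs pooled. HT29 SCR replicates 1 and 2 were among the shallower libraries, at an estimated 14200000 and 16100000 reads, and the part of depth in this spread was not tested. Without SCR replicate 3 limma called 1 transporter in HT29, SLC38A2 (log2 fold change -1.32), which was then the sole gene called.

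**Figure D3:**
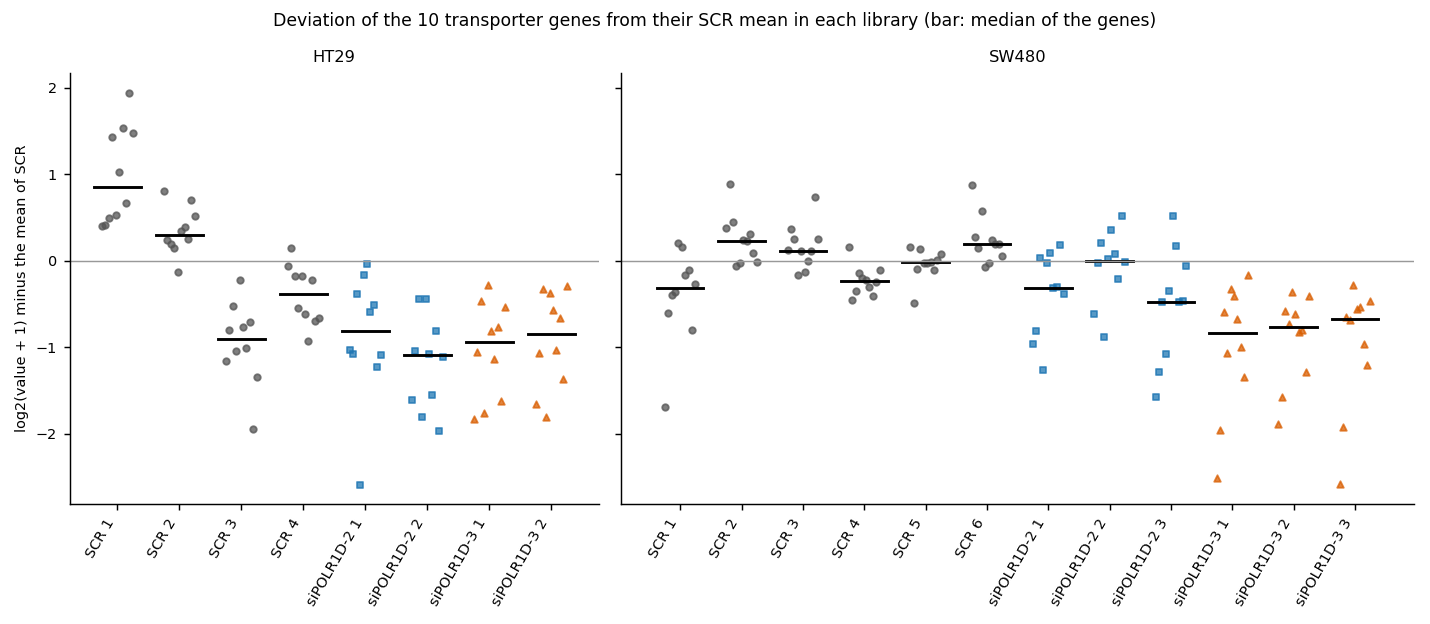
Difference of log2(value + 1) from the SCR mean of the line, for each of the 10 transporter genes (points) in each library, with the median of the 10 as a black bar. HT29 SCR replicates run from a median of 0.85 down to -0.90, and SW480 siPOLR1D-3 libraries lie at -0.83 to -0.67.

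The response of SW480 was compared with that of HT29 as a difference of differences over 12724 genes. Limma called 0 of the 10 (5 of all genes, 0.0393%), and 1 of the 10 reached an unadjusted p under 0.05, where 8.58% of all genes did. That gene was SLC1A4, whose log2 fold change was less negative in SW480 by 1.04 (SE 0.45, limma adjusted p = 0.532). The other differences ran from -0.21 (SLC38A2) to 0.95 (SLC6A9).

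Levels of different genes were compared per kb of the longest coding transcript. In SCR libraries of HT29, SLC3A2 was the highest at 3158 ± 2717 (SD, n = 4) per kb, followed by SLC7A5 at 2731 ± 1621, SLC1A5 at 1756 ± 478, SLC38A2 at 1567 ± 492, SLC7A1 at 1246 ± 498 and SLC38A1 at 748 ± 225. SLC7A11 followed at 347 ± 171, SLC1A4 at 179 ± 145, SLC43A1 at 142 ± 117 and SLC6A9 at 101 ± 103. The ranges of all neighbours in this HT29 order overlapped. In SW480, SLC7A5 led at 6611 ± 795 (SD, n = 6) per kb, before SLC1A5 at 5071 ± 503, SLC3A2 at 3088 ± 459, SLC38A2 at 2915 ± 1266, SLC38A1 at 1141 ± 266 and SLC7A1 at 521 ± 90.5. SLC43A1 at 269.6 ± 33.0, SLC1A4 at 254 ± 62.8, SLC7A11 at 174 ± 76.0 and SLC6A9 at 161 ± 55.8 closed the SW480 order. The ranges of neighbours overlapped in SW480 except between SLC1A5 and SLC3A2, SLC38A2 and SLC38A1, SLC38A1 and SLC7A1, and SLC7A1 and SLC43A1. When the union of all exons served as length, SLC7A5 was the highest in both lines and SLC3A2 ranked 3 in HT29 and 4 in SW480.

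Because members of a family or of a complex share a function, the ratio of related genes was formed within each library, which removes any scaling of the whole library. These 4 pairs were chosen after the fold changes were known and carry no test. The log2 ratio of SLC38A2 to SLC38A1 was 0.33 ± 0.25 (SD, n = 4) with SCR and -0.33 ± 0.07 (SD, n = 4) after silencing in HT29, and 0.56 ± 0.29 (SD, n = 6) and -0.36 ± 0.41 (SD, n = 6) in SW480. The ratio was above 0 in every SCR library and below 0 in 9 of the 10 silenced libraries, siPOLR1D-2 replicate 2 of SW480 being the exception at 0.33. These ratios are not corrected for length and do not rank the genes: per kb, the mean of SLC38A2 stayed above that of SLC38A1 after silencing, at 718 against 548 in HT29 and 1269 against 903 in SW480. SLC1A4 to SLC1A5 gave -2.91 ± 0.75 with SCR and -4.58 ± 0.50 after silencing in HT29, without overlap, and -3.68 ± 0.41 and -4.41 ± 0.32 in SW480, where 4 of 6 silenced libraries lay below all SCR libraries. For SLC7A11 and its heavy chain SLC3A2 the ratio was -0.84 ± 0.86 and -1.30 ± 0.29 in HT29, where every silenced library lay inside the SCR range, and -2.19 ± 0.78 and -3.52 ± 0.61 in SW480. For the other light chain, SLC7A5 to SLC3A2 was 1.02 ± 0.37 with SCR and 1.48 ± 0.10 after silencing in HT29. It was above every SCR library in 4 of 4, but barely, with the lowest silenced library at 1.343 and the highest SCR library at 1.339. In SW480 this ratio was 2.13 ± 0.20 with SCR and 2.38 ± 0.15 after silencing, above every SCR library in 2 of 6.

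**Figure D4:**
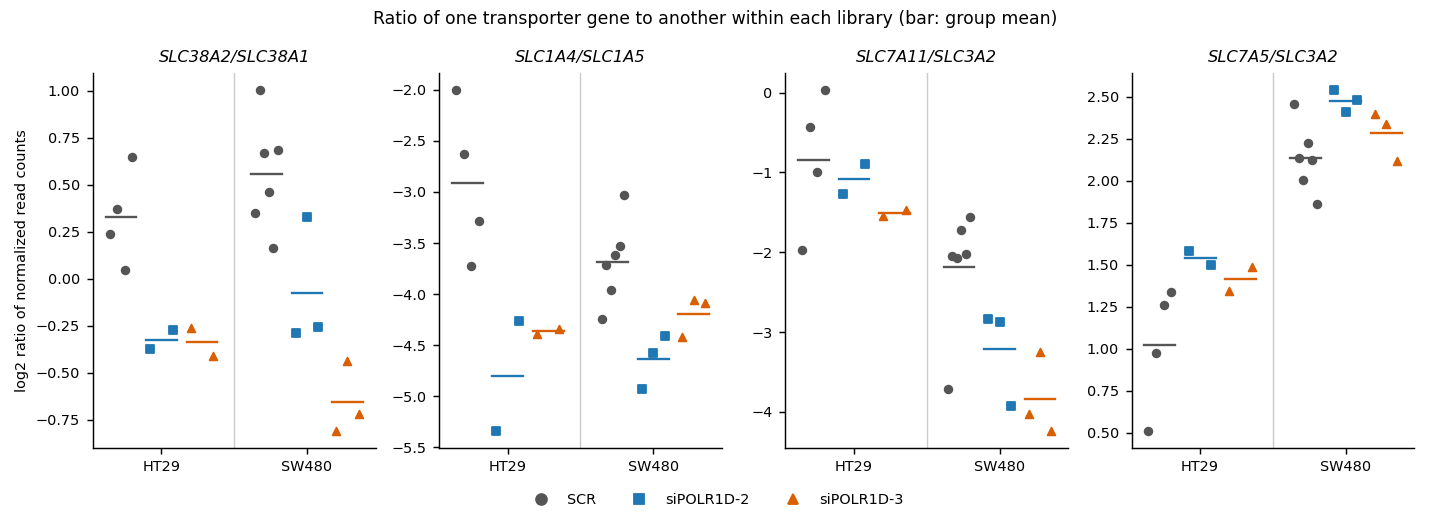
Log2 ratio of the normalized read counts of related transporter genes within each library, with HT29 on the left and SW480 on the right of each panel; points are libraries and bars are group means. The SLC38A2/SLC38A1 ratio lies above 0 in all 10 SCR libraries and below 0 in 9 of 10 silenced libraries.

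Other gene lists were examined beside the 10, with both siRNAs together in SW480. Of 42 other amino acid transporters, 26 were expressed enough to be tested, and 2 rose and 0 fell, with a median log2 fold change of 0.20. SLC7A2, a paralog of SLC7A1 that also carries cationic amino acids, rose by 0.99 on the log2 scale (SE 0.20, limma adjusted p = 0.0126), and SLC43A2, the LAT4 paralog of SLC43A1, rose by 1.54 (SE 0.36, limma adjusted p = 0.0233). SLC43A3 (0.70, limma adjusted p = 0.0712) and the lysosomal SLC36A1 (0.41, limma adjusted p = 0.158) came next. These were 2 of 26, where 2.44% of all genes passed as higher. In HT29, 20 of the 42 were tested and limma called 0 (2 higher and 1 lower at an unadjusted p under 0.05, against 4.66% and 6.05% of all genes), with a median of 0.12.

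Genes of the ATF4 circuit, regulators and targets apart from transport and synthesis, were lower in both lines by their medians. Of 16 tested in SW480, 9 fell and 0 rose, where 4.29% and 2.44% of all genes did, and the median log2 fold change was -1.20. ATF4, ATF3, DDIT3, CHAC1, SESN2, DDIT4 and PPP1R15A are among the genes the study picked from these same libraries. Their direction is not independent evidence. PPP1R15A, the phosphatase subunit that ends the translational block (-1.94, SE 0.28, limma adjusted p = 0.00275), ATF4 itself (-0.81, SE 0.14, limma adjusted p = 0.00649), the kinase-like inhibitor TRIB3 (-1.70, SE 0.37, limma adjusted p = 0.0177) and the secreted glycoprotein STC2 (-1.20, SE 0.26, limma adjusted p = 0.0178) had the smallest p-values. In HT29, 13 of 14 tested had a lower mean with a median of -1.69, and limma called 0 (11 lower and 1 higher at an unadjusted p under 0.05, against 6.05% and 4.66% of all genes).

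Enzymes that make or use the carried amino acids had 10 of 22 tested genes lower and 1 higher in SW480, where 4.29% and 2.44% of all genes passed, with a median log2 fold change of -0.54. GPT2, MTHFD2 and CTH are among the genes the study picked from these same libraries, so their direction is not independent evidence. ASNS, which makes asparagine from glutamine (-1.79, SE 0.23, limma adjusted p = 0.00166), the alanine transaminase GPT2 (-0.96, SE 0.16, limma adjusted p = 0.00488), PHGDH, the first enzyme of serine synthesis (-1.22, SE 0.20, limma adjusted p = 0.00564), and the aspartate transaminase GOT1 (-1.002, SE 0.18, limma adjusted p = 0.00803) fell. GLUL, which makes glutamine, rose by 0.60 on the log2 scale (SE 0.13, limma adjusted p = 0.0204); it was named after its value was seen, as the 1 enzyme that passed in that direction, and 1 of 22 is near the share of all genes. In HT29 limma called 0 of 21 (9 lower and 0 higher at an unadjusted p under 0.05, against 6.05% and 4.66% of all genes), with a median of -0.56.

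Targets of NRF2, the other known inducer of SLC7A11, had 2 members that passed the test in SW480. The thioredoxin reductase TXNRD1 (-0.65, SE 0.13, limma adjusted p = 0.0126) and the quinone reductase NQO1 (-0.90, SE 0.24, limma adjusted p = 0.0393) fell, 2 of 17 tested, and 0 rose, where 4.29% and 2.44% of all genes passed as lower and higher. GCLC, the catalytic subunit of glutathione synthesis (-0.46, limma adjusted p = 0.0889), and the malic enzyme ME1 (-0.41, limma adjusted p = 0.0974) did not pass, and the median of the list was -0.19. In HT29 limma called 0 of 18 (7 lower and 0 higher at an unadjusted p under 0.05, against 6.05% and 4.66% of all genes), with a median of -0.55.

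**Figure D5:**
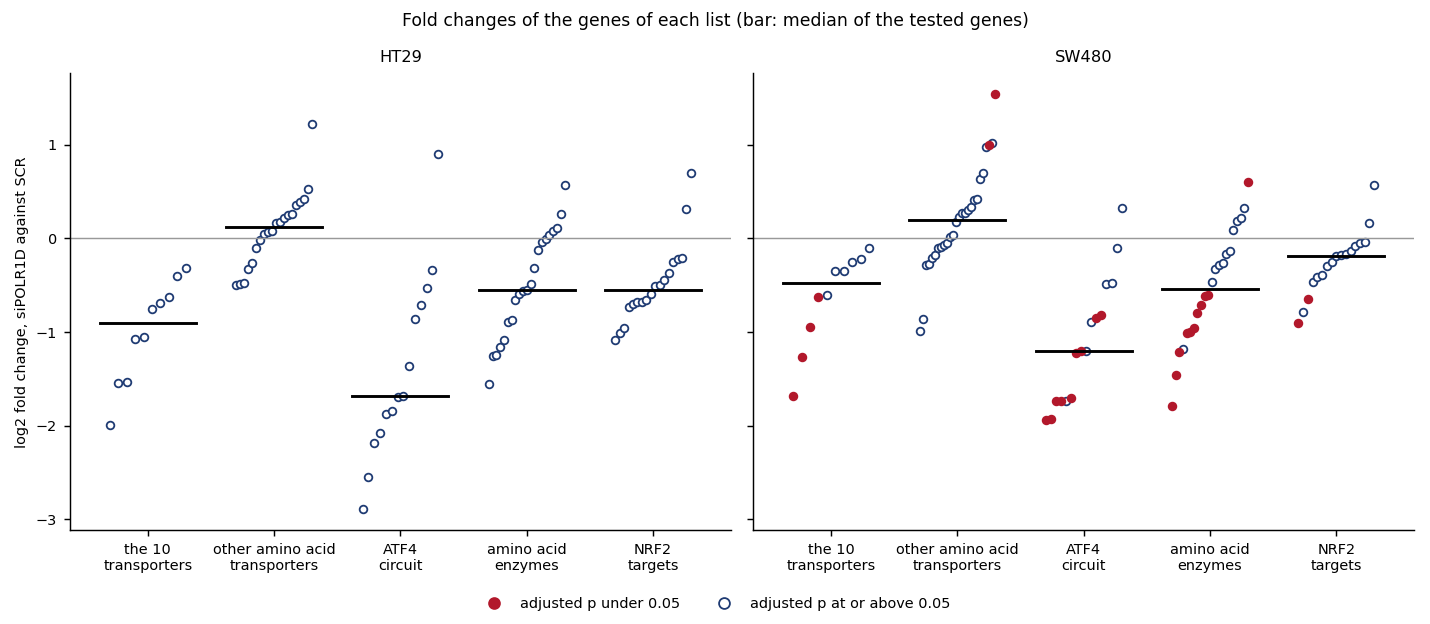
Log2 fold changes (both siRNAs together against SCR) of the tested genes of 5 lists in HT29 and SW480, sorted within each list; red points have a limma adjusted p under 0.05 and black bars are medians. In SW480 the medians are -0.47 for the 10 transporters, 0.20 for other amino acid transporters, -1.20 for the ATF4 circuit, -0.54 for the enzymes and -0.19 for NRF2 targets.

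For 9 of the transporters, the gene outside the 10 with the most similar pattern was found over the 20 libraries and 12724 genes, by Pearson's r of log2 values centred within each line. These values are descriptions, since the libraries share treatment, line and depth. SLC38A2 tracked ATF4 most closely (r = 0.95, rho = 0.97), SLC38A1 tracked IFRD1 (r = 0.95), SLC1A4 tracked HERPUD1, a gene of endoplasmic reticulum protein degradation (r = 0.92), and SLC6A9 tracked EIF4EBP1, a repressor of cap-dependent translation (r = 0.93). The closest gene to SLC3A2 was GCLC (r = 0.92), that to SLC7A11 was AP1AR (r = 0.93) and that to SLC7A1 was RANBP9 (r = 0.94). SLC7A5 was closest to ZPR1 (r = 0.93) and SLC1A5 to MRPS16, a mitochondrial ribosomal protein (r = 0.92).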

How the data were processed

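The deposited files held 1 value per named row and library, which per the labels came from kallisto 0.44.0 on hg38 and DESeq2 1.24.0. The values are a normalized signal, that is, DESeq2-normalized read counts made by the authors for each cell line alone, so levels were not tested across lines. They were not whole reads and at most 49.1% of low values were whole multiples of 1 read (tolerance 0.01), so no count model was used. Rows with the same name were summed (40117 rows, 36346 names). A gene entered the tests of a line if it reached 10 in at least 4 HT29 or 6 SW480 libraries, the size of the SCR and of the silenced group, and log2(value + 1) was tested with limma 3.58.1 (trend) in R 4.3.3 with Benjamini-Hochberg adjustment over all tested genes and a threshold of 0.05. Fold changes are on this scale and understate those of low genes. Each transporter was also tested alone by an exact permutation of the libraries, 2-sided, without adjustment for the number of genes. The exact permutation p-values not printed above were 0.0857 to 0.371 in HT29 and 0.0996 to 0.628 in SW480. On simulated data with 200 changed genes, limma found 54.2% of changes of log2 1 and 85.2% of log2 2 in HT29, and 59% and 86.8% in SW480. Whether these shares hold for the transporters in the real libraries was not tested. In HT29 the median SD of log2 values among SCR libraries was 0.85 for the transporters and 0.32 for all tested genes. The transporters, gene lists, motif and principal component sides were chosen with earlier results of these data known. Named besides the 10 and POLR1D were up to 4 genes per other list with the smallest adjusted p in SW480 and the gene most like each transporter (that of SLC43A1 is not reported here); exceptions are stated. The alternatives were other scalings, pseudocounts of 0.1 and 5, no filter or a filter at 50, no trend, robust shrinkage, the highest row in place of the sum, both lines in 1 fit, a replicate block and omission of each library. Positions are from GENCODE 29 (GRCh38).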

Additional observations from a re-analysis of the deposited data

Results flagged for a closer look

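Each transporter was examined for a library far from the others of its group (SCR or silenced, in each line; Dixon's test at the 95% level). Of 40 groups examined, 2 held such a library, and chance alone gives about 1 in 20. SLC1A4 in HT29 siPOLR1D-2 replicate 1 was 108.6, with the nearest silenced library at 187.2, so that 0.931 of the silenced range lay in that gap. SLC1A5 in HT29 SCR replicate 1 was 7118, with the nearest SCR library at 4522, so that 0.898 of the SCR range lay in that gap; that library was also the highest SCR library for 9 of the 10 transporters.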

How the results depend on the processing

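The number of transporters called in SW480 (4) was 2 without a filter on low values (666 of all genes called, against 1011) and 2 without the mean-variance trend (824), and 0 within SCR replicates 1 to 3 and siPOLR1D-2 replicates 1 and 2, where libraries were fewer and the log2 fold changes of SLC7A11 (-0.39), SLC38A2 (-0.64) and SLC7A1 (-0.36) also closer to 0; it was 1 to 4 when 1 library was left out (534 to 1283 of all genes). In HT29 (0) it was 1 with both lines in one fit and 0 to 1 when 1 library was left out. For siPOLR1D-2 in SW480 (1) it was 1 to 2 and for siPOLR1D-3 (7) 1 to 8 when 1 library was left out. For the difference between the siRNAs in SW480 (2) it was 1 without a filter, 1 without the trend and 0 to 4 when 1 library was left out. For these single siRNA and siRNA difference fits the numbers of all genes called are not reported here.

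Libraries with the same number did not deviate together (mean r -0.037 over 6 pairs in HT29 and -0.015 over 9 in SW480, against 0.016 and -0.0011 for other pairs). Of those with a same-numbered partner, 1 of 6 HT29 and 1 of 9 SW480 libraries correlated best with it. The numbers are not taken as pairing, but this check cannot exclude pairing. HT29 has 2 libraries per siRNA, whose deviations from their mean mirror each other, so their r values are forced opposites. In SW480 single r values ran from -0.595 to 0.607. With a replicate block the counts were 9 in HT29 (735 of all genes) and 0 in SW480 (0 of all genes, 3003 at an unadjusted p under 0.05). They were 2 for HT29 siPOLR1D-3 (23), 0 for SW480 siPOLR1D-2 (20) and 0 for the siRNA difference in SW480 (39). The count was 1 for the difference between lines (97). Apart from that count, the SLC7A11 difference between lines turned sign to 0.85 with the block. Replicate numbers 3 and 4 in HT29 and 4 to 6 in SW480 occur only among SCR libraries. With the block, these libraries do not enter the comparison. HT29 is then compared with SCR replicates 1 and 2 only, without SCR replicate 3, the lowest SCR library for every transporter. SW480 is compared with SCR replicates 1 to 3 only. How far this accounts for the counts was not tested.

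Log2 fold changes that turned sign were all values with no limma call over all libraries. Within SCR replicates 1 to 3 and siPOLR1D-2 replicates 1 and 2 of SW480, SLC38A1 was 0.016, SLC7A5 0.13 and SLC6A9 0.34. With siPOLR1D-2 in SW480, SLC3A2 was 0.0080 with upper quartile scaling and 0.031 with quantile normalization. For the siRNA difference in HT29, SLC3A2 was -0.015 with upper quartile scaling, and with quantile normalization SLC3A2 was -0.034, SLC1A5 -0.014 and SLC6A9 0.0085. When 1 library was left out, SLC7A5 in SW480 ran from -0.23 to 0.0002, and SLC43A1 with siPOLR1D-3 in HT29 from -0.85 to 0.085. With siPOLR1D-2 in SW480, SLC6A9 ran from -0.14 to 0.35, SLC38A1 from -0.22 to 0.12 and SLC3A2 from -0.12 to 0.12. For the siRNA difference in HT29, SLC38A2 ran from -0.026 to 0.016, SLC1A5 from -0.12 to 0.17, SLC7A5 from -0.38 to 0.66, SLC3A2 from -0.47 to 0.49, SLC7A1 from -0.10 to 0.20, SLC38A1 from -0.084 to 0.053 and SLC6A9 from -0.48 to 0.26. For the difference between lines, SLC38A1 ran from -0.11 to 0.23, SLC1A5 from -0.078 to 0.17, SLC7A1 from -0.16 to 0.30, SLC7A11 from -0.50 to 0.23 and SLC38A2 from -0.46 to 0.058. The cause of these turns was not tested.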
